A study of Rattus norvegicus with 7 samples.

Results

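Heat shock proteins and their cochaperones were examined in the thyroarytenoid muscle, the muscle that forms the body of the vocal fold. Members were the genes of the authors' deposited table whose symbols name a small heat shock protein, a heat shock protein of the HSP70, HSP110 or HSP90 families, a J-domain (DNAJ) protein, a BAG protein, a subunit of the cytosolic chaperonin (CCT) or a heat shock factor (HSF). Mitochondrial Hspa9, Hspd1, Hspe1, Dnajc11 and Dnajc19, and Dnajc6, were left out by name. By symbol, the CCT subunit Tcp1 was not taken, whereas the Cct8-like gene Cct8l1 was counted with the CCT genes. The rule gave 80 of 14702 genes, none with a repeated symbol. They comprised 7 small heat shock proteins, 9 HSP70, 3 HSP110 and 3 HSP90 genes, 38 DNAJ genes (4 DNAJA, 11 DNAJB and 23 DNAJC), 6 BAG genes, 8 CCT genes, 3 heat shock factors and 3 genes with related names outside these families.

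RNA was sequenced in 7 libraries from female Long Evans rats aged 8 months, 4 of them wild type (WT) and 3 Pink1-/-. Each library carries its own number in the labels, which do not state that each is a separate animal, so the p-values measure the spread between these libraries. Pink1 is a kinase that marks damaged mitochondria for removal, and people who lack it develop an early inherited parkinsonism. How the Pink1 allele was made is unknown here, and pieces of frozen muscle were used, so all its cell types contribute. The authors' deposited table holds 1 comparison, Pink1-/- against WT, and values per library were not analysed here. In such bulk tissue, fewer cells of a type and less RNA per cell cannot be told apart.

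Chaperones keep proteins folded. Small heat shock proteins hold unfolding proteins without using ATP, and several of them are made mainly in muscle, where they bind desmin, titin, filamin and actin. HSP70 proteins bind and release unfolded stretches in cycles of ATP use; DNAJ proteins start each cycle by delivering the client, and BAG and HSP110 proteins end it by exchanging the nucleotide. HSP90 completes the folding of kinases, receptors and, in muscle, myosin, and the CCT ring folds actin and tubulin. Heat shock factor Hsf1 switches on many of these genes when unfolded protein accumulates, by binding heat shock elements in their promoters.

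None of the 80 members was called at an adjusted p under 0.05 in the authors' edgeR likelihood ratio test with Benjamini-Hochberg adjustment, against 448 of 14702 genes (3.05%) in the authors' deposited table. At an unadjusted p under 0.05 the same table lists 12 members (15.0%), against 17.0% of all genes, so the share of members past that limit was no larger than the background. Of these 12, 11 were higher in Pink1-/- muscle and 1 was lower, while the shares of all genes were 9.04% higher and 7.99% lower. That split turned with libraries scaled to equal summed CPM: 8 members (10.0%) were then under 0.05, against 22.3% of all genes, and 2 were higher (Bag2 and Hspb2; 3.05% of all genes) and 6 lower (Hspa12a, Dnajc3, Dnajb1, Hspa1b, Hsp90aa1 and Dnajc10; 19.3% of all genes). The smallest adjusted p of a member was 0.0967, for Dnajc15, followed by 0.101 for Bag2 and 0.134 for Dnajc27, all values of the authors' deposited table. The same table gives 1.37% of all genes as called higher and 1.68% as called lower; with libraries scaled to equal summed CPM, described next, 4.29% of genes were called, 0.429% higher and 3.86% lower, and still no member. The count of members was also 0 where likelihood ratios were divided by 1.96 (0.0952% of genes called), with a minimum of 1 CPM (2.63%) and with a minimum mean log2 CPM of 5 (3.07%). An adjusted p under 0.1 gave 1 member, against 5.26% of genes.

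The members' log2 fold changes of Pink1-/- over WT spanned a narrow range, from -0.55 for Dnajb13 to 1.003 for Hspb2 in the authors' deposited table. Their median was 0.18, and 57 of 80 (71.3%) were above 0, against a median of -0.02 and 48.0% above 0 over all genes. These directions rest on the scaling between libraries. CPM (counts scaled to a common total) summed over all genes was larger in Pink1-/- than in WT by 0.21 (log2), and scaling that makes the sums equal lowers every log2 fold change by that amount. Under that scaling the median of the members was -0.03, 37 of 80 were above 0 against 28.6% of all genes, and 20 members changed sign. The distance between the members' median and that of all genes, 0.20, is the same under either scaling. Equal sums move the median of all genes to -0.23. Abundant genes weigh most in the sums. Skeletal muscle markers, described below, had summed implied levels of 48092 CPM (WT) and 85972 CPM (Pink1-/-), and Myh4 alone had 32764 and 58665 CPM. Which scaling is nearer the truth was not tested. Above a mean log2 CPM of 5, a limit set after the values were seen, the median was 0.16 for 44 members and 0.06 for 4628 genes.

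**Figure D1:**
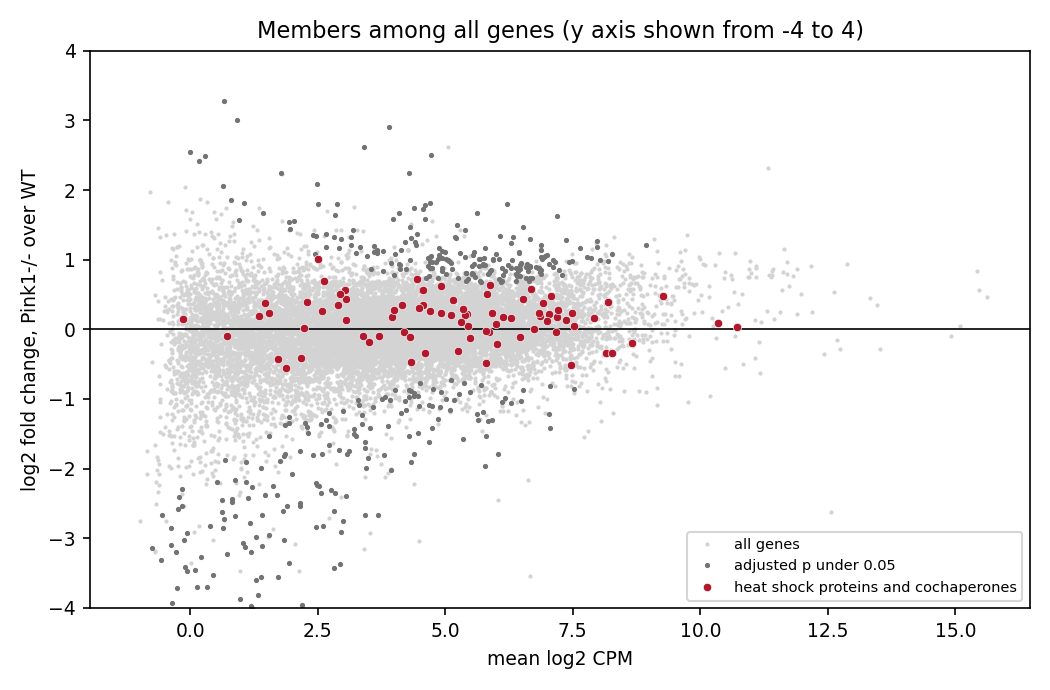
Log2 fold change of Pink1-/- over WT (y axis) against mean log2 CPM (x axis) for all 14702 genes in light grey, genes with an adjusted p under 0.05 in dark grey and the 80 heat shock proteins and cochaperones in red; 85 genes beyond 4 either way are not shown. No member lies among the dark grey genes, and all members lie between -0.55 and 1.003.

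The measured change needed for a call was moderate in most of these genes. A standard error (SE) was taken for each gene from its deposited fold change and likelihood ratio, and the smallest log2 fold change that would have been called follows from it. That limit had a median of 0.75 over the members, which is 1.69-fold, and ran from 0.63 for Dnajc14 to 2.13 for Cct8l1. As deposited, the implied 95% interval lay inside 2-fold in both directions for 58 of the 80 members, against 60.9% of all genes. The limit for a call applies to the measured fold change, so a true difference of that size could also be missed with these 7 libraries. Dividing the likelihood ratios by 1.96, as in a setting above, would widen every interval, and no interval given here allows for that. An adjusted p above the threshold does not show that the genotypes were alike.

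Pink1 itself was 30.1-fold lower in Pink1-/- muscle (log2 fold change -4.91, adjusted p 8.24e-49 in the authors' deposited table). Cell type markers lay on different sides of 0. All 10 skeletal muscle markers were above 0 as deposited and 9 under scaling to equal summed CPM. Their deposited median was 0.83, and none was called. Their summed implied expression was 48092 CPM (WT) and 85972 CPM (Pink1-/-), of which Myh4 alone held 32764 and 58665 CPM. Many of these markers are genes of fast fibres, so muscle content and fibre type cannot be told apart here. Below 0 lay all 10 Schwann cell and nerve markers (median -0.96, summed 563 and 327 CPM, 5 called), all 8 measured fibroblast markers (median -0.57, summed 3993 and 2792 CPM, none called), 9 of 10 measured squamous epithelium markers (median -1.25, summed 2074 and 939 CPM, 2 called) and all 8 measured slow fibre genes (median -1.20, summed 1065 and 706 CPM, 2 called). No measured marker was at 0. The part of this composition in the chaperone values was not tested.

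The small heat shock proteins had the highest median of the named families, 0.48 or 1.39-fold, which is 0.50 above the median of all genes. As deposited, 6 of 7 were above 0, and 5 of 7 under scaling to equal summed CPM, against 48.0% and 28.6% of all genes. None was called, and 2 (28.6%) had an unadjusted p under 0.05 as deposited, against 17.0% of all genes. Hspb2, which binds the myotonic dystrophy protein kinase, had the largest value of all members, 1.003 on the log2 scale (adjusted p 0.158) in the authors' deposited table. Its implied expression was 3.98 CPM (WT) and 7.98 CPM (Pink1-/-), and the implied interval of its log2 fold change ran from 0.21 to 1.79. Hspb3, the partner of Hspb2 in muscle, stood at 0.57 (adjusted p 0.242) in the authors' deposited table. Both genes are expressed chiefly in muscle, and skeletal muscle markers as a list lay higher in the same comparison. The part of muscle content or fibre type in the values of Hspb2 and Hspb3 was not tested.

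Cryab, alpha B crystallin, protects desmin and titin, and its mutation causes a myofibrillar myopathy in people. It stood at 0.48 (adjusted p 0.480) in the authors' deposited table; its implied level was 524 CPM (WT) and 733 CPM (Pink1-/-). Cryab lies beside Hspb2, and the spans of both genes overlap in the RefSeq annotation of the rat assembly GRCr8. Strand use in the authors' counting is not known here, so reads of the pair cannot be told apart where they overlap. Hspb6, a phosphoprotein of contracting muscle, stood at 0.48 and Hspb8, which works with Bag3 to clear damaged filamin, at 0.40 in the authors' deposited table, at adjusted p 0.349 and 0.475. Hspb1, which binds actin, was close to 0 at 0.12 in the authors' deposited table, or -0.09 under scaling to equal summed CPM. Hspb7, a heart and muscle form tied to filamin C, was the member below 0, at -0.21 (adjusted p 0.760) in the authors' deposited table.

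The median of the HSP70 family lay on the other side of 0. It was -0.12, which is 0.10 below the median of all genes, and the median SE of its genes was 0.25. Below 0 were 6 of 9 genes as deposited and 7 of 9 under scaling to equal summed CPM. Above 0 were 3 and 2 of the 9, against 48.0% and 28.6% of all genes. None of the 9 was called. Hspa8, the constitutive HSP70 of the cytosol, stood at 0.08 (adjusted p 0.949) in the authors' deposited table, or -0.13 under scaling to equal summed CPM. Its implied expression was 1270.5 CPM (WT) and 1346 CPM (Pink1-/-), but the implied interval of the log2 fold change, from -0.69 to 0.86, was wide. The SE of Hspa8, 0.40, was close to the median of 0.42 over the 34 genes within 0.5 log2 CPM of it. Reads of Hspa8 may be shared with copies: RefSeq names 33 pseudogenes of it in the rat. A pair of genes that the authors' deposited table describes as similar to heat shock protein 8, LOC680121 and LOC688655, stood at 0.22 and 0.41 at adjusted p 0.796 and 0.614.

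Hspa1b, the HSP70 that heat induces, stood at -0.33 (adjusted p 0.495) in the authors' deposited table. Implied expression of Hspa1b was 26.7 CPM (WT) and 21.2 CPM (Pink1-/-), and the implied interval from -0.80 to 0.13 leaves out a rise of more than 1.09-fold as deposited. Its near-identical neighbour Hspa1a was not analysed here, so reads may have been split between the copies. Hspa5, the HSP70 of the endoplasmic reticulum, stood at -0.19 (adjusted p 0.814) in the authors' deposited table. The lowest p of the family belonged to Hspa1l, a form best known from testis, at 0.69 (adjusted p 0.258) in the authors' deposited table, from 4.87 to 7.85 implied CPM. Hspa12a, a distant relative found in brain, stood at -0.46 (adjusted p 0.281) and was the only member below 0 with an unadjusted p under 0.05 as deposited in the authors' deposited table. Hspa2, another form of testis, stood at -0.42 (adjusted p 0.595) in the authors' deposited table. The other 3 genes, Hspa12b, Hspa13 and Hspa14, ranged from -0.12 to 0.28 in that table.

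The HSP110 proteins, which exchange the nucleotide of HSP70, lay near 0. Hspa4l stood at 0.21, Hspa4 at 0.16 and heat-inducible Hsph1 at -0.04 in the authors' deposited table, at adjusted p 0.678, 0.80 and 0.962. All 3 were below 0 under scaling to equal summed CPM. Counted with them, the HSP70 family had a median of -0.07 over 12 genes.

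The HSP90 family had the lowest median, -0.34, which is 0.32 below the median of all genes, but it holds only 3 genes. Hsp90aa1, the inducible cytosolic form, which folds myosin in muscle, stood at -0.34 (adjusted p 0.563) in the authors' deposited table. Its implied expression was 311 CPM (WT) and 247 CPM (Pink1-/-). Hsp90b1, the form of the endoplasmic reticulum, also stood at -0.34, (adjusted p 0.593) in the authors' deposited table, from 337 to 266 implied CPM. Hsp90ab1, the constitutive cytosolic form, stood at 0.04 (adjusted p 0.978) in the authors' deposited table. Its implied levels were 1661 and 1707 CPM, and the implied interval ran from -0.78 to 0.85. RefSeq names 16 rat pseudogenes of Hsp90aa1 and 23 of Hsp90ab1, so both values are uncertain.

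**Figure D2:**
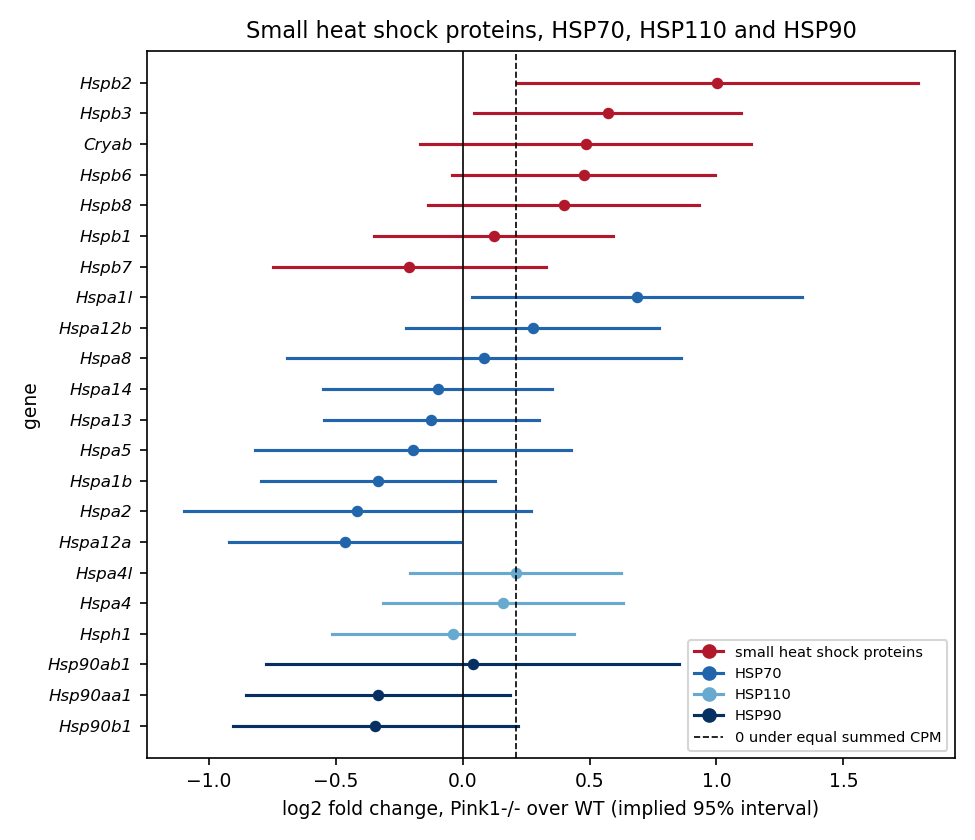
Log2 fold change of Pink1-/- over WT (x axis, points) with the implied 95% interval (lines) for each small heat shock protein, HSP70, HSP110 and HSP90 gene; the dashed line at 0.21 is where 0 would lie under scaling to equal summed CPM. Of these 22 genes only Hspb2, Hspb3, Hspa1l and Hspa12a have intervals that leave out 0, and only Hspb2, Hspa12a, Hspa1b and Hsp90aa1 have intervals that leave out the dashed line.

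DNAJ genes, the largest family, had a median of 0.20 over 38 genes. Above 0 were 26 as deposited and 19 with equal summed CPM, against 48.0% and 28.6% of all genes. None was called. An unadjusted p under 0.05 was found for 7 (18.4%), close to the 17.0% of all genes, and all 7 were higher in Pink1-/- muscle as deposited. With equal summed CPM none of the 7 passed that limit. The 3 that did, Dnajc3, Dnajb1 and Dnajc10, were lower, as were 19.3% of all genes at that limit. The medians of the DNAJA, DNAJB and DNAJC classes were 0.25, 0.04 and 0.18.

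In the DNAJA class, Dnaja3, which acts with mitochondrial HSP70, stood at 0.59 (adjusted p 0.152) in the authors' deposited table. Its implied expression was 84.0 CPM (WT) and 126 CPM (Pink1-/-). The cytosolic forms Dnaja4 and Dnaja2 stood at 0.27 and 0.23, and Dnaja1, which has a heat shock element at its start, at -0.11 in the authors' deposited table, at adjusted p 0.551, 0.636 and 0.834.

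Among DNAJB genes, Dnajb5 stood at 0.51 and Dnajb6 at 0.44 in the authors' deposited table, at adjusted p 0.212 and 0.255. Dnajb6 prevents aggregation at the Z-disc, and its mutation causes a limb-girdle muscular dystrophy in people. Implied expression of Dnajb6 was 79.5 CPM (WT) and 108 CPM (Pink1-/-), and RefSeq names 9 rat pseudogenes of it. Dnajb2, a neuronal and muscle form that sorts clients to the proteasome, stood at 0.24 (adjusted p 0.641) in the authors' deposited table. Dnajb1, the classical heat-inducible partner of HSP70, stood at -0.32 (adjusted p 0.483) in the authors' deposited table, from 41.7 to 33.5 implied CPM. Dnajb13, a protein of motile cilia and sperm tails, had the lowest value of all members, -0.55 (adjusted p 0.543) in the authors' deposited table, at implied levels of only 4.27 and 2.91 CPM. The other 6 DNAJB genes ranged from -0.18 for Dnajb14 to 0.29 for Dnajb9, an endoplasmic reticulum protein, in the authors' deposited table.

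The DNAJC class, whose members share little beyond the J domain, held the lowest p of all 80 genes. Dnajc15, which sits in the mitochondrial inner membrane and restrains the respiratory chain, stood at 0.63 (adjusted p 0.0967) in the authors' deposited table. Implied expression of Dnajc15 was 24.6 CPM (WT) and 37.97 CPM (Pink1-/-), and the implied interval of its log2 fold change ran from 0.19 to 1.07. Dnajc27, which also carries a Rab-like GTPase domain, stood at 0.64 (adjusted p 0.134) in the authors' deposited table, from 47.4 to 73.7 implied CPM. Dnajc16 and Dnajc21, the latter needed for ribosome assembly, stood at 0.56 and 0.42 in the authors' deposited table, at adjusted p 0.182 and 0.294.

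Dnajc13, Dnajc5 and Dnajc12 are known from other diseases, and their values ran from -0.10 to 0.18, the latter also the class median. They are not all of the disease genes of the class, and Dnajc5 and Dnajc12 were named after their values were seen. Dnajc13, an endosomal protein in which variants have been linked to Parkinson's disease in people, stood at 0.01 (adjusted p 0.989) in the authors' deposited table. Its implied levels were 107 CPM in both genotypes, and its implied interval ran from -0.38 to 0.40. Dnajc5, the cysteine string protein of synaptic vesicles, stood at 0.18 (adjusted p 0.759) in the authors' deposited table, and Dnajc12, the cochaperone of phenylalanine hydroxylase, at -0.10 with 0.901. The lowest members of the class were Dnajc10 and Dnajc3, both of the endoplasmic reticulum, at -0.51 and -0.48 at adjusted p 0.480 and 0.376 in the authors' deposited table. The SE of Dnajc10, 0.35, exceeded the median of 0.23 over the 648 genes within 0.5 log2 CPM of it. Mitochondrial Dnajc30 and Dnajc28 stood at 0.40 and 0.34 in the authors' deposited table, at adjusted p 0.596 and 0.490. The other 12 DNAJC genes ranged from -0.11 to 0.56 in that table, and none of them had an unadjusted p under 0.05.

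**Figure D3:**
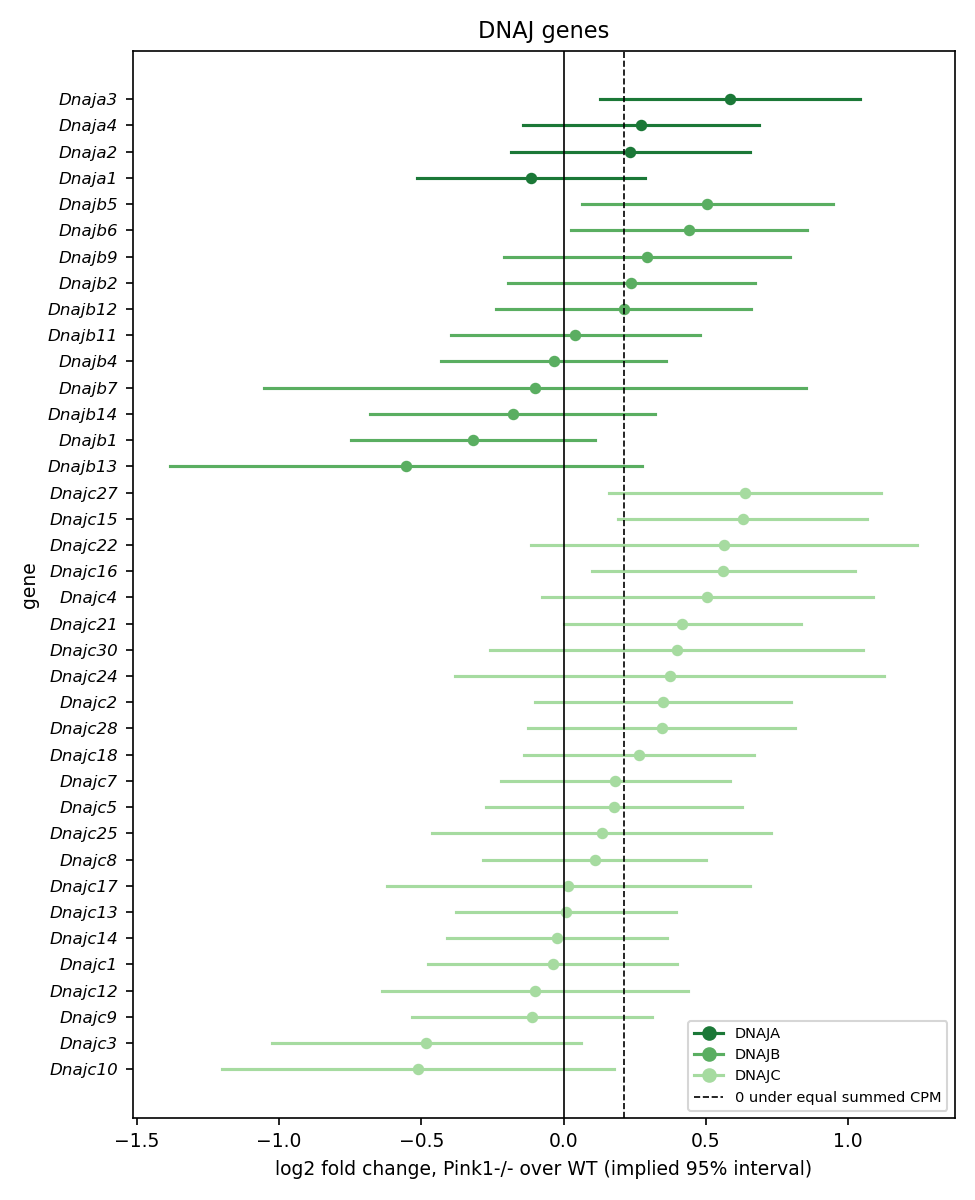
Log2 fold change of Pink1-/- over WT (x axis, points) with the implied 95% interval (lines) for the 38 DNAJ genes, by class; the dashed line at 0.21 is where 0 would lie under scaling to equal summed CPM. The 7 intervals that leave out 0 lie on the higher side, whereas the 3 that leave out the dashed line (Dnajc3, Dnajb1 and Dnajc10) lie on the lower side.

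BAG proteins had a median of 0.30, with 5 of 6 above 0 as deposited and 4 of 6 under scaling to equal summed CPM. Over all genes the shares above 0 were 48.0% and 28.6%. Bag2, which blocks the ubiquitin ligase that acts on HSP70 clients, stood at 0.72 (adjusted p 0.101) in the authors' deposited table. Implied expression of Bag2 was 17.2 CPM (WT) and 28.3 CPM (Pink1-/-), and the implied interval ran from 0.21 to 1.23. Bag3, the core of chaperone-assisted autophagy of filamin in contracting muscle, stood at 0.08 (adjusted p 0.899) in the authors' deposited table, or -0.13 under scaling to equal summed CPM. Its implied interval ran from -0.34 to 0.51. Bag5 stood at 0.44, Bag6, which guards tail-anchored membrane proteins, at 0.38, Bag1 at 0.22 and Bag4 at -0.42 in the authors' deposited table, with adjusted p-values between 0.395 and 0.662.

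All 8 CCT genes were above 0 as deposited, but only 2 of 8 under scaling to equal summed CPM, and their values were close together, from 0.04 for Cct5 to 0.24 for Cct3 in the authors' deposited table. Tcp1, a further ring subunit outside the naming rule, stood at 0.19 in that table. Apart from the Cct8-like gene Cct8l1, the 8 genes code for subunits of 1 ring, so their transcripts need not vary independently. None was called or had an unadjusted p under 0.05, and the smallest adjusted p was 0.653, for Cct8 in the authors' deposited table. The intervals of 7 of the 8 lay inside 2-fold in both directions; the exception was Cct8l1, a gene at implied levels of 0.866 and 0.956 CPM. In the authors' deposited table Cct8 stood at 0.22, Cct2 at 0.19, Cct7 at 0.17, Cct6a at 0.16, Cct8l1 at 0.14 and Cct4 at 0.13. RefSeq names 14 rat pseudogenes of Cct6a, so its value is uncertain.

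Transcripts of the heat shock factors stood slightly above 0. Hsf1, the master factor of the response, stood at 0.30, Hsf2 at 0.24 and Hsf4, the factor of the lens, at 0.18 in the authors' deposited table, at adjusted p 0.533, 0.604 and 0.891. Hsf1 is mainly controlled after translation, so its transcript level does not report its activity. The 3 genes with related names outside these families are Hspbp1, which exchanges the nucleotide of HSP70, Hspbap1, which binds Hspb1, and Hspb11, an intraflagellar transport protein. They stood at 0.36, 0.26 and 0.23 in the authors' deposited table, with adjusted p-values from 0.610 to 0.818.

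**Figure D4:**
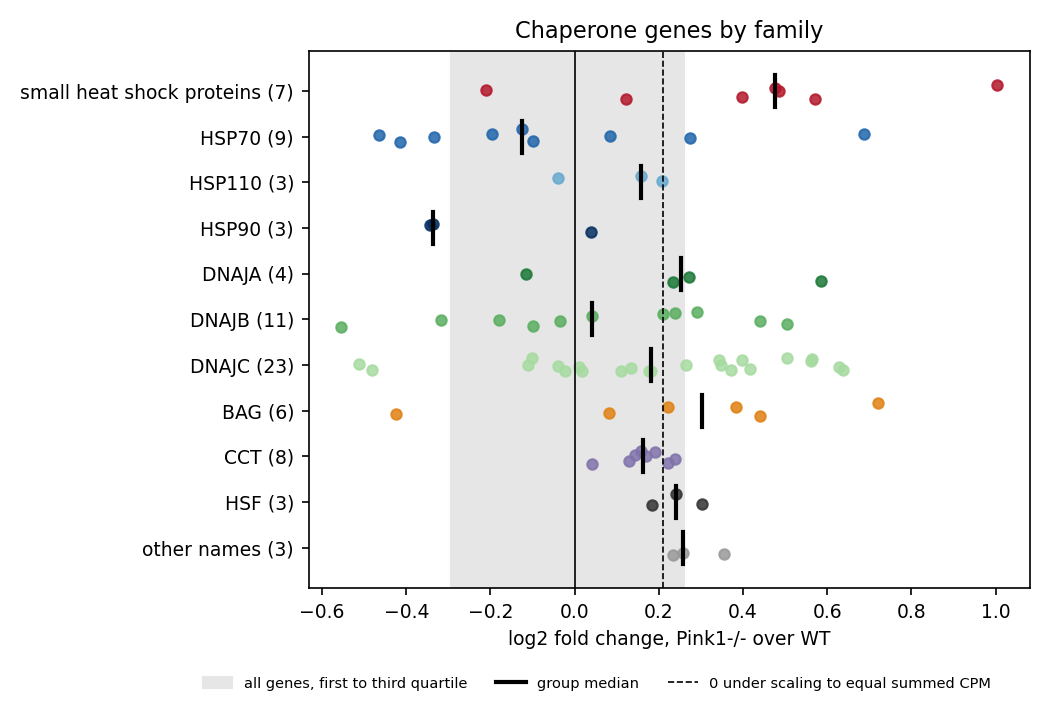
Log2 fold change of Pink1-/- over WT (x axis) of each of the 80 members as points, by family (y axis, number of genes in brackets), with the family median as a bar; the grey band spans the quartiles of all 14702 genes and the dashed line at 0.21 is where 0 would lie under scaling to equal summed CPM. The small heat shock proteins have a median of 0.48, DNAJC 0.18, HSP70 -0.12 and HSP90 -0.34.

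The families therefore differed in median, from 0.48 in the small heat shock proteins and 0.20 in the DNAJ genes to -0.12 in HSP70 and -0.34 in HSP90. Scaling to equal summed CPM lowers every value by the same amount, so it cannot change this order. The difference between families was not tested, since that needs values per library. Members within a family also overlapped between families: Hspa1l stood above 6 of the 7 small heat shock proteins and Hspb7 below Hspa5, Hspa13 and Hspa14.

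Promoters were searched for heat shock elements, since many members are known targets of Hsf1. RefSeq promoter windows of GRCr8, from 250 bases before to 50 after the start of a gene, were found by symbol for 62 of the 80 members. The 18 not searched include Hspa1b, Hsp90aa1, Cryab, Hspb2, Dnajc15 and Hsf1, so the counts leave out several of the best known heat-inducible genes. The element searched was 3 alternating units, GAANNTTCNNGAA or TTCNNGAANNTTC, which are each other's reverse complement, so both strands are covered. It was present in 4 of the 62 members (6.45%), Hspa8, Hsph1, Dnaja1 and Cct4, against 54 of the 10573 genes of the deposited table with a window (0.511%) and 0.798% of all 33469 windows. Hspa8 and Hsph1 are shown over the 250 bases before the start, and Dnaja1 and Cct4, whose elements lie just after it, over the site alone. All are written on the strand of the gene with the elements in capitals.

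Hspa8, chr8:50080264-50080513, plus strand, elements at -213 to -201 and -55 to -43: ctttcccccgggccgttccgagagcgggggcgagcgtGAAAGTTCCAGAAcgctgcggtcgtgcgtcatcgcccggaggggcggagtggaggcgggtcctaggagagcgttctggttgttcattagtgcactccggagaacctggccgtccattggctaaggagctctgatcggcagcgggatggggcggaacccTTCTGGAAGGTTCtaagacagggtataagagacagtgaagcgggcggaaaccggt
Hsph1, chr12:10427118-10427367, plus strand, element at -36 to -24: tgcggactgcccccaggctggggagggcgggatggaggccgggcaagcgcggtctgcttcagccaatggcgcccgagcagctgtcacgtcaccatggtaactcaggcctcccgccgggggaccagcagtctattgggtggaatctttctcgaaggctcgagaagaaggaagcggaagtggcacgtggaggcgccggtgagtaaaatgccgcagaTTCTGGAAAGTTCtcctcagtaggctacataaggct
Dnaja1, chr5:60638405-60638433, plus strand, element at 10 to 22: gccgggcgGAACTTTCCAGAAcgctcggt
Cct4, chr14:101193074-101193102, plus strand, element at 26 to 38: gcgtcgctTTCTGGAAGGTTCgtggaggc

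The 4 members with the long element were all close to 0. Their log2 fold changes in the authors' deposited table were 0.08 for Hspa8, -0.04 for Hsph1, -0.11 for Dnaja1 and 0.13 for Cct4, with a median of 0.02, and all 4 were below 0 under scaling to equal summed CPM. The median over the 54 tested genes with the long element was 0.13. A match is a description of the sequence and does not show that the site is used, and no match says only that these letters are not in the window.

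A shorter form of 2 units, GAANNTTC or TTCNNGAA, each its own reverse complement in pattern and contained in every long element, was present in 16 of the 62 members (25.8%) against 12.3% of the tested genes. It was the only form in 12 members, of which 10 were above 0 as deposited (median 0.18) and 5 with equal summed CPM (median -0.03), against 48.0% and 28.6% of all genes. Among the 5 small heat shock proteins with a window, Hspb1, Hspb6 and Hspb8 held it. A site of each is shown, with those of Bag3, which works with Hspb8, and heat-inducible Dnajb1; these genes were chosen after their values were seen.

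Hspb1, chr12:26432412-26432441, minus strand, element at -129 to -122: cttcaactagaGAAGTTTCcagatgggggc
Hspb6, chr1:94934212-94934241, plus strand, element at -149 to -142: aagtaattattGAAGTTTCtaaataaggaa
Hspb8, chr12:45837274-45837303, plus strand, element at -23 to -16: agaagccaggaGAAGTTTCtaggcgcgtga
Bag3, chr1:192533317-192533346, plus strand, element at -132 to -125: ggatgggaccaGAAGTTTCtagccggccag
Dnajb1, chr19:41431142-41431163, minus strand, element at -11 to -4: cgggaggggcgGAAGGTTCtgg

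Hspb1, Hspb6, Hspb8 and Bag3 hold the same letters GAAGTTTC at these sites and stood at 0.12, 0.48, 0.40 and 0.08 in the authors' deposited table, with Hspb1 (-0.09) and Bag3 (-0.13) below 0 under equal summed CPM. Of the 12 members with only the short form, Dnajb1 and Hspa2 were below 0 as deposited, at -0.32 and -0.42 in the authors' deposited table. The 46 members with a window and neither form had a median of 0.20, with 33 above 0 as deposited and 23 with equal summed CPM.

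**Figure D5:**
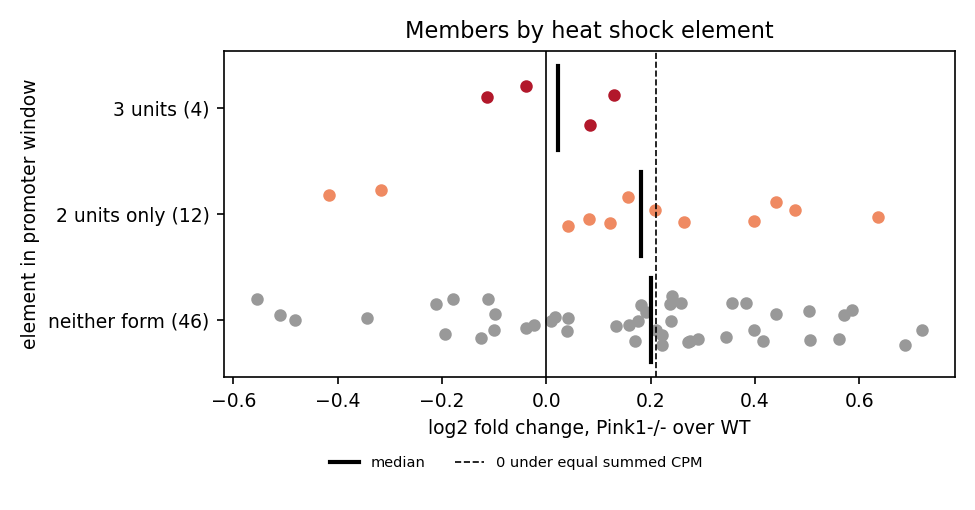
Log2 fold change of Pink1-/- over WT (x axis) of the 62 members with a promoter window, by the heat shock element found in it (y axis, number of genes in brackets), with the median as a bar; the dashed line at 0.21 is where 0 would lie under scaling to equal summed CPM. The 4 genes with 3 units lie between -0.11 and 0.13, within the range of the 46 genes with neither form.

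Partners of these chaperones outside the naming rule were described from 6 lists. Of 17 HSP90 cochaperones, 14 were above 0 as deposited and 9 under scaling to equal summed CPM, with a median of 0.23. Unc45b, which with HSP90 folds the myosin head in striated muscle, rose by 0.90 (adjusted p 0.0397) in the authors' deposited table, the only call in the 6 lists. Implied expression of Unc45b was 100.4 CPM (WT) and 187 CPM (Pink1-/-), and the call ended under scaling to equal summed CPM, where its adjusted p was 0.112. Smyd1, a methyltransferase of striated muscle that also assists myosin assembly, stood at 0.75 (adjusted p 0.0915) in the authors' deposited table, and Aarsd1 at 0.59 with 0.175. Values above 0 were not limited to the muscle forms. In the authors' deposited table, the kinase partner Cdc37 stood at 0.45, the phosphatase Ppp5c at 0.49 and Nudc at 0.46. These genes were named after their values were seen. Each had an unadjusted p under 0.05 as deposited, as did 6 of the 17 in the list (35.3%) and 17.0% of all genes. With equal summed CPM, Cdc37 fell to 0.24, Ppp5c to 0.28 and Nudc to 0.25, at adjusted p 0.539, 0.454 and 0.536. Lower in the list were Stip1 at 0.05, Ptges3 at -0.04, Fkbp5 at -0.08 and Unc45a at -0.12 in the authors' deposited table. The part of the higher skeletal muscle markers in the values of Unc45b and Smyd1 was not tested.

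Folding factors of the endoplasmic reticulum lay on the lower side under both scalings. Of 16 such genes 15 were below 0 as deposited and all 16 under scaling to equal summed CPM. Of all genes, 48.0% were above 0 as deposited and 28.6% under that scaling. The 16 had a median of -0.27, and none was called. Creld2 stood at -1.07 (adjusted p 0.169) in the authors' deposited table. The disulfide isomerases Pdia4 and Pdia3 stood at -0.52 and -0.54 at adjusted p 0.328 and 0.364 in the authors' deposited table. These genes are needed most in secretory cells, and markers of squamous epithelium and fibroblasts also lay lower; their part in these values was not tested.

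The other 4 lists held no call. Partners of Bag3 and Hspb8 in chaperone-assisted autophagy had a median of 0.32 with 7 of 7 above 0, or 5 of 7 under scaling to equal summed CPM; Flnc, the filamin of muscle, stood at 0.65, Synpo2 at 0.51 and Wipi1 at 0.32 in the authors' deposited table, at adjusted p 0.403, 0.383 and 0.480. Among 5 HSP70 cochaperones outside the rule the median was 0.35, with Tomm70 at 0.49, Sgta at 0.47 and Stub1, the ubiquitin ligase of chaperone clients, at 0.35 in the authors' deposited table, at adjusted p-values of 0.224, 0.263 and 0.393. Prefoldin, which hands actin and tubulin to CCT, was listed with Tcp1, itself a CCT subunit that the naming rule does not take. This list had a median of 0.21 over 8 genes. Pfdn6, Pfdn1 and Pfdn5 stood at 0.58, 0.42 and 0.22 in the authors' deposited table, at adjusted p 0.124, 0.273 and 0.604. The 10 mitochondrial chaperones outside the rule had a median of 0.25, with 8 above 0 as deposited and 7 with equal summed CPM. Among them, Trap1, the mitochondrial HSP90, stood at 0.49, Grpel1 at 0.42 and Clpb at 0.42 in the authors' deposited table, at adjusted p 0.287, 0.293 and 0.314.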

How the data were processed

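The labels' protocols give flash-frozen muscle as the source of total RNA, and a TruSeq RNA kit for the libraries. The submitters' processing notes name edgeR 3.9 and RSEM without their roles; aligner, build, annotation, filter and scaling are unknown here, as is the depth of each library. The file deposited by the authors is their edgeR comparison, with a log2 fold change and mean log2 CPM per gene, the likelihood ratio (a score), its p-value, and that p-value after adjustment. The planned test on counts per library could not be run, so calls are the authors'.

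The SE was taken as the size of the log2 fold change over the square root of the likelihood ratio; 95% intervals use the normal quantile. Implied CPM per genotype assumes equal library sizes. The calculations were run on simulated data, which checks the arithmetic only. It cannot show that the implied SE or equal library sizes hold for these libraries. Python 3.11.15, pandas 2.3.3 and scipy 1.17.1 were used. All members and lists were chosen with earlier results of these data known. Named genes were any called member, in each family the 4 with the smallest p and the 2 with the highest mean log2 CPM, all HSP110, HSP90, BAG, CCT and HSF genes, and in each list the 3 with the smallest p; any other gene was named after its value was seen. Alternatives were scaling to equal summed CPM, likelihood ratios divided by their median excess, a minimum of 1 CPM, an adjusted p under 0.1, repeated symbols and other family boundaries.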

Additional observations from a re-analysis of the deposited data

How the results depend on the processing

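The count of members called stayed at 0 under scaling to equal summed CPM, after division of all likelihood ratios by 1.96, the factor by which their median exceeds that of chi-square, with a minimum of 1 CPM, with a minimum mean log2 CPM of 5 (chosen after seeing the data) and with every row of a repeated symbol kept. Over all genes these settings called 631 (63 higher and 568 lower), 14, 377 and 142 genes; keeping repeated symbols changed nothing because no member symbol is repeated. At an adjusted p under 0.1 the count was 1, Dnajc15, against 5.26% of all genes. None of the 52 named members passed the threshold under scaling, divided likelihood ratios or the 1 CPM minimum, but 13 of them changed sign under scaling to equal summed CPM. Counting HSP110 with HSP70 moved the HSP70 median from -0.12 to -0.07, and counting Hspb11 with the small heat shock proteins moved theirs from 0.48 to 0.44. No paired analysis was possible because the file holds no values per library, and leaving out each library was not run for the same reason. How far 1 library sets any value is therefore unknown here.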

Other observations

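Members were also grouped by where their proteins act or by heat induction, a grouping chosen after the values were seen and so given with no test; the ranges of the last 2 groups overlap. The 4 mitochondrial members, Dnaja3, Dnajc15, Dnajc28 and Dnajc30, were all above 0 under both scalings, against 48.0% and 28.6% of all genes. Their log2 fold changes ran from 0.34 to 0.63 with a median of 0.49, and none was called. Mitochondrial chaperones outside the rule did not all lie there. As deposited, Hscb (-0.19) and Grpel2 (-0.02) were below 0 and Hspe1 stood at 0.13, or -0.08 with equal summed CPM. Of those 10, 8 were above 0 as deposited. Of 8 members of the endoplasmic reticulum, Hspa5, Hspa13, Hsp90b1, Dnajb9, Dnajb11, Dnajc1, Dnajc3 and Dnajc10, 6 were below 0 as deposited and 7 under scaling to equal summed CPM, with a median of -0.16. Their summed implied expression was 1174 CPM (WT) and 976 CPM (Pink1-/-). These 8 are not all members tied to that compartment. Of others in its membrane, Dnajc16 (0.56), Dnajc18 (0.26), Dnajb12 (0.21) and Dnajc25 (0.13) were above 0 as deposited. Dnajb14 (-0.18) and Dnajc14 (-0.02) were below 0, so the median of -0.16 holds only for the 8 genes listed. The 8 members grouped for heat induction, Hspa1b, Hsph1, Dnajb1, Dnaja1, Hsp90aa1, Hspb1, Bag3 and Hspa8, had a median of -0.08. All 8 were below 0 under scaling to equal summed CPM, where only 28.6% of all genes were above 0. Cryab (0.48) and Hspb8 (0.40), which heat also induces, were not in this group. The summed implied expression of the 8 was 2074 CPM (WT) and 2075 CPM (Pink1-/-). Hspa8, which is mainly constitutive, was the main part of both sums, at 1270 and 1346 CPM, so they say little about the other 7. As deposited, the intervals of all 8 lay inside 2-fold in both directions. With equal summed CPM, those of Hsp90aa1 and Hspa1b reach slightly past 2-fold lower.

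Dnajc6, auxilin, which uncoats clathrin vesicles in neurons and causes a juvenile parkinsonism when lost in people, is left out by the naming rule. It stood at -1.15 (adjusted p 0.154) in the authors' deposited table, further from 0 than any member.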
